A study of Mus musculus with 18 samples.

Results

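Of the 36737 genes counted in L3–L5 dorsal root ganglia (DRG) of CD1 mice, 8 adrenergic receptor genes were followed here: *Adra1a*, *Adra1b*, *Adra1d*, *Adra2a*, *Adra2b*, *Adra2c*, *Adrb1* and *Adrb3*. They were identified in the files by their symbols, and each symbol belonged to 1 gene identifier. CD1 is an outbred strain, and the 18 libraries came from 3 groups of 6 mice, each with 3 males and 3 females and 1 library per mouse. Sham mice had sham surgery. Fracture mice had a fracture of the left tibia, made by osteotomy over a steel pin in the marrow canal, and received vehicle. Fracture+PDX mice had the same fracture and received protectin DX (PDX), a lipid mediator made from docosahexaenoic acid. DRG of both fracture groups were taken on day 3, and the sources used here give neither the day of the Sham mice, their vehicle, nor the PDX dose of these mice.

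Adrenergic receptors bind noradrenaline and adrenaline. Alpha-1 receptors couple to Gq and phospholipase C, alpha-2 receptors to Gi and Go, which lower cAMP and calcium entry, and beta receptors to Gs and adenylyl cyclase. In sensory ganglia these receptors are studied because sympathetic fibres can reach sensory neurons after nerve injury, and because alpha-2 agonists such as clonidine relieve pain.

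The libraries held 63235040 to 82824942 counts on genes, and no pair of libraries was identical. The ganglion carried its own markers: *Tubb3*, a neuronal tubulin, lay between 2340 and 2948 CPM, and the satellite glial gene *Apoe* between 2291 and 3476 CPM. CPM are counts scaled to the size of the library, after TMM normalization. Transcripts of another tissue were present as well. The summed level of 18 placental trophoblast genes was 267.6 to 863.9 CPM in Sham, 40.5 to 389 CPM in Fracture and 40.2 to 212 CPM in Fracture+PDX libraries, in males as well as females, and no gene of that list was at 0 in all libraries of a group. The Fracture range overlapped that of Sham, and the Fracture+PDX range did not. This list was drawn up after the data had been seen, and genes of the prolactin and pregnancy-specific glycoprotein families share sequence, so single members are uncertain.

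The abundance of the receptors was compared per transcript length, as FPKM. *Adra2c*, an alpha-2 subtype of neurons, was the most abundant receptor, at 6.96 ± 0.824 FPKM (SD, n = 18), and ranked 6048 among all genes. *Adra2a*, the subtype through which clonidine acts on pain, had 2.35 ± 0.524 FPKM and *Adra1d* had 1.98 ± 0.283 FPKM. *Adra1b* followed with 0.923 ± 0.165 FPKM, *Adrb1*, the main beta receptor of the heart, with 0.521 ± 0.0984 FPKM, and *Adra2b* with 0.486 ± 0.225 FPKM. *Adrb3*, the beta receptor of fat cells, had 0.136 ± 0.116 FPKM and *Adra1a* had 0.0894 ± 0.0365 FPKM. The alpha-2 family thus held both the highest and the sixth place, and the beta receptors followed here, *Adrb1* and *Adrb3*, lay in the lower part of the order.

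Neighbours in this order were compared by paired permutation tests over the 18 libraries (two-sided, 100000 resamples, not adjusted). *Adra2c* exceeded *Adra2a* in 18 of 18 libraries (permutation p = 2e-05) and *Adra2a* exceeded *Adra1d* in 15 of 18 (permutation p = 0.0488). *Adra1d* exceeded *Adra1b*, and *Adra1b* exceeded *Adrb1*, in 18 of 18 libraries each (permutation p = 1e-05, the smallest that these resamples can give). *Adrb1* and *Adra2b* were not separated beyond their spread, with *Adrb1* higher in 9 of 18 libraries (permutation p = 0.24). *Adrb3* and *Adra1a*, at the bottom, were not separated either (11 of 18 libraries, permutation p = 0.206). Within groups, *Adra2b* was the fifth receptor in Sham (0.75 FPKM), above *Adrb1* (0.538 FPKM). In Fracture (0.39 FPKM) and Fracture+PDX (0.318 FPKM) mice *Adra2b* was the sixth, below *Adrb1* (0.488 and 0.535 FPKM). In Fracture, *Adra1d* (2.01 FPKM) lay above *Adra2a* (1.98 FPKM), and in Sham *Adra1a* (0.112 FPKM) lay above *Adrb3* (0.1 FPKM). On CPM, which do not account for length, 4 of the 8 receptors kept their place, and *Adra1a* exceeded *Adrb3* in 16 of 18 libraries (permutation p = 0.00057, not adjusted).

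**Figure D1:**
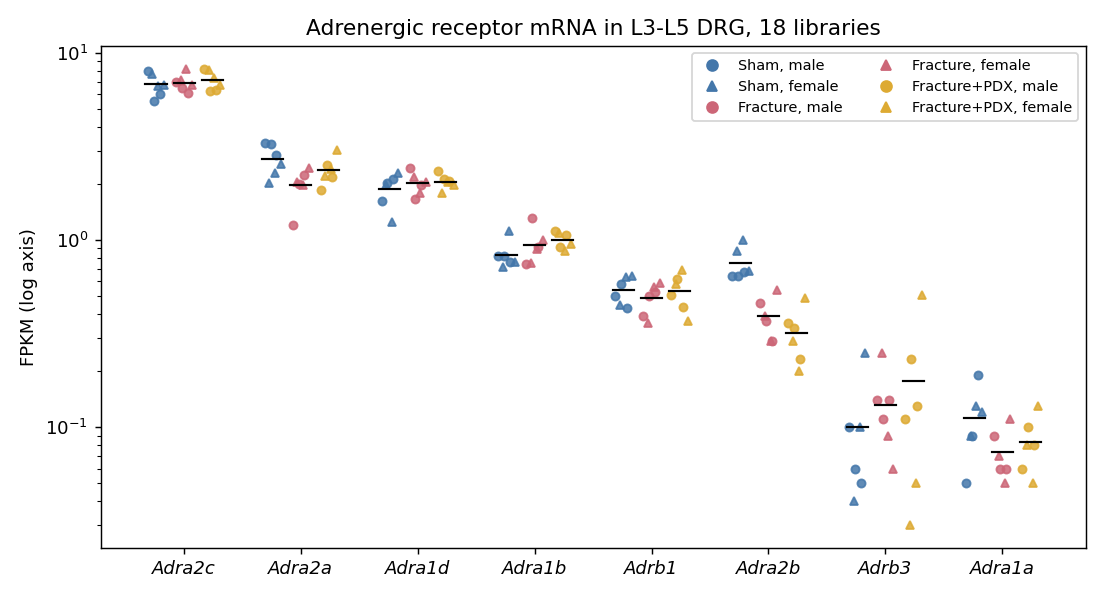
FPKM of the 8 receptors (log axis) in each of the 18 libraries, ordered by mean, with circles for males, triangles for females and a black line for each group mean of 6 mice. *Adra2c* lies near 7 FPKM in all groups, *Adra2b* lies higher in Sham than in either fracture group, and *Adrb3* spreads from 0.03 to 0.51 FPKM.

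*Adra2b* was the receptor that differed between groups. It encodes an alpha-2 receptor known from blood vessels and, in mice, from the placenta. In Sham mice its level was 2.84, 2.85 and 3.02 CPM in the males and 3.77, 4.35 and 3.04 CPM in the females. In Fracture mice it was 2.06, 1.64 and 1.31 CPM in the males and 1.72, 1.29 and 2.38 CPM in the females. All 6 Fracture libraries were below every Sham library, in both sexes. In Fracture+PDX mice it was 1.63, 1.56 and 1.04 CPM in the males and 1.30, 0.93 and 2.16 CPM in the females, again without overlap with Sham but within the range of Fracture for 4 of 6 libraries. These levels rested on 65 to 350 counts per library.

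*Adra2b* lies on chromosome 2 at chr2:127363208-127367221 on the plus strand (mm10). Because it was the receptor called between groups, the sequence upstream of the annotated gene is shown, from RefSeq on GRCm38.p6 at chr2:127362929-127363207, plus strand, 5′ to 3′. Promoter sequences were found for 5 of the 8 receptors. Capitals mark the letters CCGCCC, the reverse strand of the GC box GGGCGG.
Adra2b upstream: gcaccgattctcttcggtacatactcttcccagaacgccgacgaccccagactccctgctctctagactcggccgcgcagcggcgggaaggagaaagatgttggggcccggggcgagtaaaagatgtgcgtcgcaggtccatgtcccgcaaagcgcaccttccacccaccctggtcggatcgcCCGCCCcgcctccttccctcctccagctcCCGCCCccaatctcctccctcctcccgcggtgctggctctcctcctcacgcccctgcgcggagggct
This stretch of 279 bases was 67% G or C and held 2 GC boxes, which do not overlap each other. A GC box on either strand was present in 34.6% of 32851 promoter windows of the same length. The letters TGACGTCA, the cAMP response element, were absent here and present in 1.74% of the windows, and AGATAA, bound by GATA factors, was absent here and present in 10.7%.

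Does fracture alter the receptors? Counts of the 6 Fracture and 6 Sham libraries were compared with edgeR's quasi-likelihood test with sex as a covariate, and calls were made at an adjusted p under 0.05 (Benjamini-Hochberg, over all genes tested). All 8 receptors passed the filter on low counts. Of these, 1 was called, against 2.92% of the 20659 genes tested. *Adra2b* fell to 0.528 of the Sham level (log2 fold change −0.92 ± 0.17 SE, adjusted p = 0.0163), where 1.83% of all genes were called lower. Its groups did not overlap, as was true of 1.53% of all genes in that direction, and the exact permutation test gave p = 0.00216, the smallest possible for 6 against 6. The call was lost with limma on log2(FPKM + 1) (adjusted p = 0.0531), a scale that compresses low levels. The median log2 fold change over the 8 receptors was −0.04, beside 0.00 over all genes. Fewer cells of a type and less RNA per cell cannot be told apart in such bulk samples.

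Placental genes were examined beside *Adra2b*. All 18 were tested, and 4 of them (*Prl3d1*, *Prl2c2*, *Prl2c3* and *Prl4a1*, of the prolactin family) were called lower in Fracture than in Sham, where 1.83% of all genes were called lower. Leaving out 1 library ended each of these calls in 7 to 9 of 12 cases. Their median log2 fold change was −1.78, beside 0.00 over all genes. When the mean of these 18 genes was added to the model, the *Adra2b* difference was −0.41 ± 0.21 (SE) and was no longer called (adjusted p = 0.779), and the genes called fell from 603 to 1. The placental mean itself differs with group, so this fit separates placental level from group poorly. Across the 18 libraries, after the group means were removed, *Adra2b* and the placental mean had Pearson's r = 0.49 (permutation p = 0.0655) and Spearman's rho = 0.46 (permutation p = 0.0819), with adjusted p = 0.665 and 0.676 over the 112 relations of 8 receptors with 14 cell type lists. With the 2 libraries of most extreme placental level left out, r was 0.47, and within Sham, Fracture and Fracture+PDX it was 0.53, 0.92 and 0.11. The fibroblast mean had r = 0.52 (permutation p = 0.0578) and rho = 0.45 (permutation p = 0.0782) with *Adra2b*, with the same adjusted p. There r was 0.19 without the 2 most extreme libraries, and 0.25, 0.63 and 0.58 within the groups. The part of placental transcripts in the *Adra2b* difference was not tested beyond these values. Of 9 endothelial genes, 2 were called lower in Fracture (*Cdh5*, −0.73 ± 0.12, and *Flt1*, −0.71 ± 0.13), beside the same 1.83% of all genes. The others of that list lay between −0.24 and 0.07 and were not called. The list summed to 160.2 to 182 CPM in Fracture and 179.7 to 223 CPM in Sham, so its ranges overlapped.

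**Figure D2:**
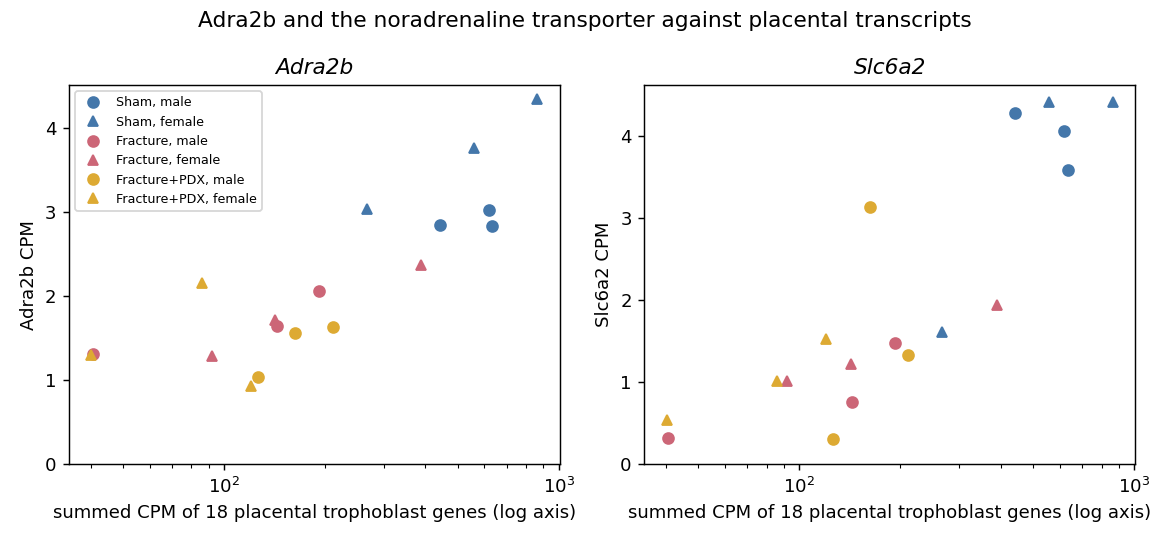
CPM of *Adra2b* (left) and of *Slc6a2*, the noradrenaline transporter (right), against the summed CPM of 18 placental trophoblast genes (log axis), 1 point per library, with circles for males and triangles for females. All Sham libraries have 267.6 CPM or more of placental genes, and their *Adra2b* values lie above the 12 others, which are below 2.4 CPM. In the *Slc6a2* panel Sham Female 3, at 1.61 CPM, lies among the other groups.

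The level of *Adra2a* was 10.5 to 17.6 CPM in Sham (median 14.5), 6.45 to 12.9 CPM in Fracture (median 10.7) and 9.9 to 16.0 CPM in Fracture+PDX mice (median 12.4), so the groups overlapped. The log2 fold change of Fracture against Sham was −0.43 ± 0.17 (SE) and did not pass the adjusted threshold (adjusted p = 0.19; exact permutation p = 0.0346, not adjusted). Without Fracture Male 1, the lowest library, the difference was −0.30 ± 0.11. By sex, the level was 16.8 ± 1.32 CPM in Sham and 9.68 ± 2.9 CPM in Fracture males (SD, n = 3), and 12.1 ± 1.62 and 11.4 ± 1.28 CPM in the females. The interaction of sex with fracture was 0.71 ± 0.27 on the log2 scale (female minus male difference) and was not called (adjusted p = 0.621). No gene was called in that interaction (0% of 20659), where 1488 genes had an unadjusted p under 0.05 and DESeq2 called 62.

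**Figure D3:**
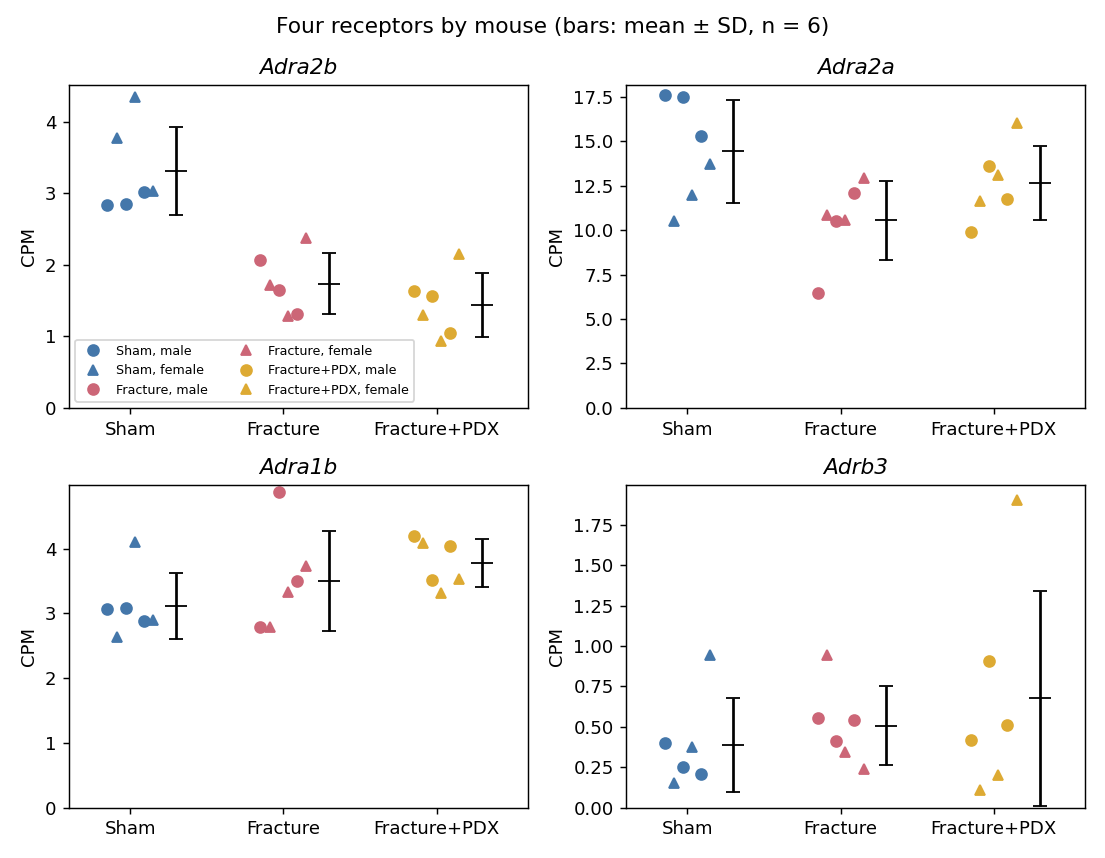
CPM of *Adra2b*, *Adra2a*, *Adra1b* and *Adrb3* in each mouse (circles, males; triangles, females), with the mean ± SD of 6 mice beside each group and axes that start at 0. *Adra2b* separates Sham from both fracture groups, whereas the other 3 receptors overlap between all groups.

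*Adra2c* was at 21.1 to 30.5 CPM in Sham, 23.5 to 31.5 CPM in Fracture and 24.2 to 31.3 CPM in Fracture+PDX mice. Its log2 fold change was 0.04 ± 0.09 (SE) in Fracture and 0.09 ± 0.10 in Fracture+PDX against Sham. The spread of 11.6% (coefficient of variation over 18 libraries) was the lowest of the 8 receptors.

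The alpha-1 receptors were not called in any comparison. *Adra1a*, a smooth muscle receptor, had 0.559 to 1.92 CPM in Sham and 0.522 to 1.11 CPM in Fracture mice (log2 fold change −0.58 ± 0.29, adjusted p = 0.311), with 39 to 148 counts per library. *Adra1b* had a median of 2.98 CPM in Sham, 3.42 CPM in Fracture and 3.78 CPM in Fracture+PDX mice. Its lowest Fracture+PDX library (3.31 CPM) was above 5 of 6 Sham libraries, and the log2 fold change against Sham was 0.28 ± 0.13 (adjusted p = 0.26; exact permutation p = 0.0346, not adjusted). The sixth, Sham Female 2, had 4.10 CPM, and without it the difference was 0.39 ± 0.11 (adjusted p = 0.0912). *Adra1d* ranged from 2.57 to 4.83 CPM in Sham, 3.44 to 5.14 CPM in Fracture and 3.75 to 4.92 CPM in Fracture+PDX mice, and all 3 ranges overlapped.

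Of the beta receptors, *Adrb1* had 1.61 to 2.43 CPM in Sham, 1.34 to 2.20 CPM in Fracture and 1.36 to 2.64 CPM in Fracture+PDX mice, and its log2 fold changes lay between −0.13 and 0.14. *Adrb3* was the most variable receptor, with a coefficient of variation of 82.5% and 8 to 127 counts per library. Its median was 0.312 CPM in Sham, 0.478 CPM in Fracture and 0.465 CPM in Fracture+PDX mice, and its log2 fold changes were 0.43 ± 0.45 (Fracture against Sham), 0.84 ± 0.64 (Fracture+PDX against Sham) and 0.41 ± 0.59 (Fracture+PDX against Fracture), none of them called. The library Fracture+PDX Female 3 had 1.90 CPM, and without it the last difference was −0.50 ± 0.49 and the second 0.01 ± 0.67.

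The 9 adipocyte genes summed to 84.1 CPM in Fracture+PDX Female 3 and 73.2 CPM in Sham Female 3, and to 8.11 to 34.2 CPM in the other 16 libraries. Both held the highest *Adrb3* of their groups, at 0.946 CPM in Sham Female 3. Fracture+PDX Male 2 had 0.909 CPM of *Adrb3* with an adipocyte sum of 14.1 CPM. None of these 9 genes was at 0 in all libraries of a group. After removal of group means, *Adrb3* and the adipocyte mean had r = 0.73 (permutation p = 0.0025) and rho = 0.65 (permutation p = 0.00813) over 18 libraries, with adjusted p = 0.28 and 0.676 over the same 112 relations, of which 0 passed. Without the 2 libraries of most extreme adipocyte level, r was 0.42, and within the groups it was 0.79, 0.87 and 0.69. With the adipocyte mean as a covariate, the *Adrb3* difference was 0.25 ± 0.41 for Fracture+PDX against Fracture. The part of fat cells in these values was not tested further.

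**Figure D4:**
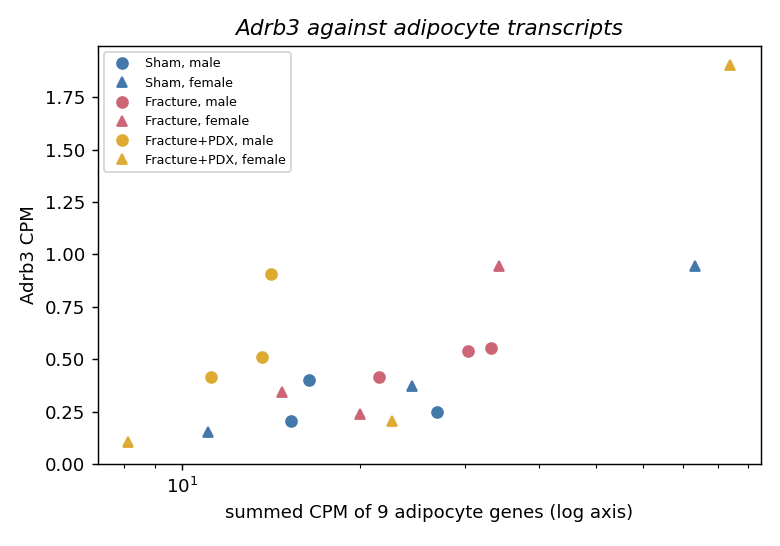
CPM of *Adrb3* against the summed CPM of 9 adipocyte genes (log axis), 1 point per library, circles for males and triangles for females. The 2 libraries with the most adipocyte transcripts are Fracture+PDX Female 3 (1.90 CPM of *Adrb3*) and Sham Female 3 (0.946 CPM).

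Fracture with PDX was also compared with Sham, which shares its Sham libraries with the comparison above. Of the 8 receptors tested, 1 was called, against 4.5% of 20574 genes. *Adra2b* fell to 0.438 of the Sham level (log2 fold change −1.19 ± 0.20 SE, adjusted p = 0.00574), where 2.32% of all genes were called lower. The groups did not overlap (1.48% of all genes in that direction), and the exact permutation test gave p = 0.00216. Here 15 of the 18 placental genes were called lower (*Tpbpa*, *Tpbpb*, *Prl3b1*, *Prl2c2*, *Prl2c3*, *Prl7b1*, *Prl8a9*, *Prl4a1*, *Prl7a2*, *Psg17*, *Psg19*, *Psg21*, *Ctsq*, *Ctsm* and *Ctsj*). The median log2 fold change of the list was −2.31. Leaving out 1 library ended the call of *Psg21* in 10 of 12 cases, that of *Prl7a2* in 1 and none of the others. With the mean of the 18 genes in the model, the *Adra2b* difference was −0.69 ± 0.41 and was no longer called (adjusted p = 0.934). Calls over all genes fell from 925 to 0 in that fit. The placental ranges of these groups did not overlap, so the fit can hardly separate placental level from group.

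Does PDX alter the receptors after fracture? No receptor was called between Fracture+PDX and Fracture mice, where 0% of 20562 genes were called by edgeR, 1113 had an unadjusted p under 0.05 and DESeq2 called 21. No receptor separated the groups either (0.277% of all genes did). The difference of *Adra2b* was −0.27 ± 0.23 (SE, adjusted p = 0.957) and that of *Adra2a* was 0.26 ± 0.14 (adjusted p = 0.917), on the log2 scale. The other 6 receptors lay between 0.03 and 0.41. Of these, *Adra1d* was −0.034 without Fracture Male 2 and *Adra2c* −0.014 without Fracture+PDX Male 1, and *Adrb3* turned negative as given above. The interaction of sex with PDX called 0 receptors (0.00486% of 20562 genes). Between all females and all males, 0 receptors were called (0.291% of 21340 genes), with log2 fold changes from −0.10 to 0.34. In all, 4 of the 24 exact permutation tests of a receptor between 2 groups gave an unadjusted p under 0.05.

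**Figure D5:**
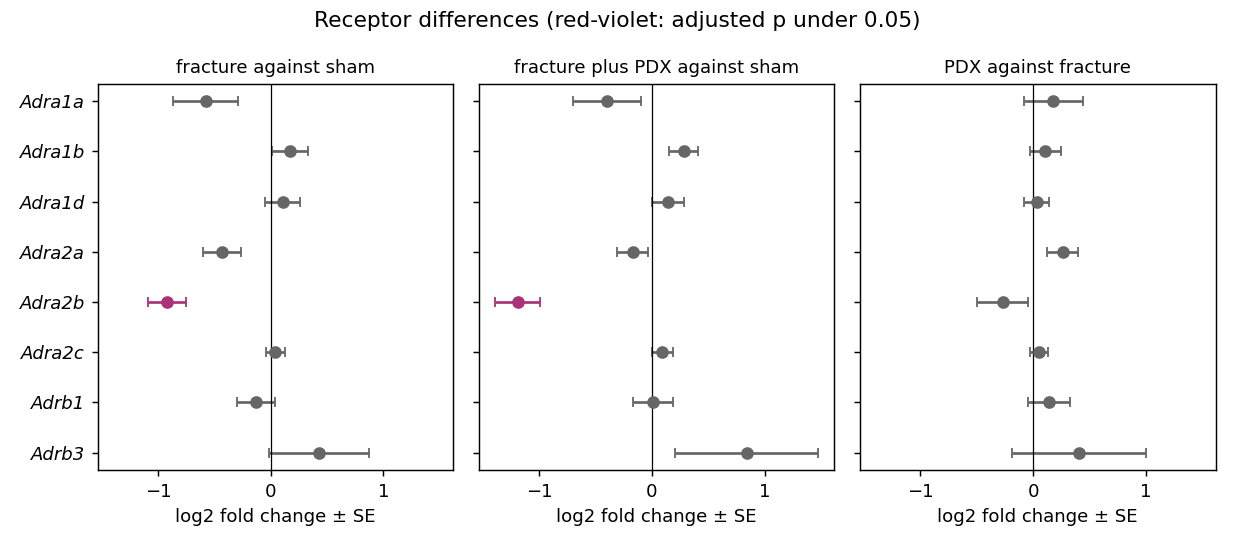
Log2 fold change ± SE of the 8 receptors in the 3 comparisons of the groups, with the zero line in black and called genes in red-violet. Only *Adra2b* is called, lower in both fracture groups than in Sham, at −0.92 and −1.19.

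Noradrenaline itself is made, stored and removed by the products of 12 genes followed beside the receptors. *Th*, the first enzyme of its synthesis, which C-fibre low-threshold mechanoreceptors also express, was at 67.9 to 136.6 CPM in Sham, 78.1 to 112 CPM in Fracture and 71.4 to 108 CPM in Fracture+PDX mice and was not called in any comparison. *Dbh*, which turns dopamine into noradrenaline, had at most 26 counts in 16 libraries, 83 in Sham Male 2 and 178 in Fracture+PDX Male 2. *Pnmt*, which makes adrenaline, had 0 counts in 14 libraries and at most 14 in the others. *Dbh* and *Pnmt* did not pass the filter on low counts and were not tested between groups.

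The transporter gene *Slc6a2*, whose product takes noradrenaline back up, had 3.58, 4.27 and 4.05 CPM in the Sham males and 4.41, 4.41 and 1.61 CPM in the Sham females. It had 1.47, 0.757 and 0.322 CPM in the Fracture males and 1.22, 1.02 and 1.93 CPM in the Fracture females. It fell in Fracture against Sham (log2 fold change −1.76 ± 0.37, adjusted p = 0.0283), the 1 gene called of the 10 tested in this list, beside 2.92% of all genes. In Fracture+PDX against Sham it was −1.53 ± 0.46 and was not called (adjusted p = 0.0966). The call in Fracture was lost when Sham Male 2, Male 3, Female 1 or Female 2, or Fracture Male 2 or Female 2, was left out (adjusted p = 0.0586 to 0.0727). *Slc6a2* is known from the placenta too, and with the placental mean in the model it was −0.30 and 0.30 in these comparisons, neither called. These fits have the limit given above for *Adra2b*. After removal of group means, *Slc6a2* and the placental mean had r = 0.76 (permutation p = 0.0016) and rho = 0.83 (permutation p = 0.00023) over 18 libraries, with adjusted p = 0.158 and 0.029 over 126 relations, the 14 of *Slc6a2* included. Without the 2 libraries of most extreme placental level, r was 0.64, and within Sham, Fracture and Fracture+PDX it was 0.83, 0.95 and 0.60. The part of placental transcripts in the *Slc6a2* difference was not tested beyond these values. *Maob*, which breaks down amines, was −0.50 ± 0.17 in Fracture (adjusted p = 0.142) and −0.61 ± 0.17 in Fracture+PDX mice (adjusted p = 0.059).

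The other genes of this list that are given here were not called. *Maoa*, the other monoamine oxidase, had log2 fold changes between −0.06 and 0.04 in the 3 comparisons. *Slc18a2*, the vesicle transporter, was −0.17 ± 0.16 and *Ddc*, which makes dopamine, was 0.19 ± 0.17 in Fracture against Sham. *Gch1*, which makes the cofactor of *Th*, had a mean of 5.85, 5.56 and 5.79 CPM in the 3 groups, *Slc18a1* one of 2.59, 2.57 and 2.47 CPM, and *Slc22a3*, a low-affinity carrier, one of 2.94, 2.92 and 2.49 CPM (Sham, Fracture, Fracture+PDX).

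Downstream of the receptors, lists of signalling genes were read against the 2.92% of all genes called in Fracture and the 4.5% called in Fracture+PDX mice against Sham. Of 11 genes of the Gq branch, 0 were called in any comparison of groups, and *Plcb3*, a phospholipase C and the most counted of them, was 0.07 ± 0.04 in Fracture against Sham. Of 8 genes of the Gi/o branch, 0 were called, and *Gnao1*, the alpha subunit of Go, was 0.09 ± 0.03. Of 20 genes of the Gs and cAMP branch, 0 were called in Fracture and 3 in Fracture+PDX mice against Sham. *Adcy7*, an adenylyl cyclase, fell (−0.41 ± 0.09), *Rapgef3*, a cAMP-activated exchange factor, fell (−0.57 ± 0.13), and *Prkacb*, a catalytic subunit of protein kinase A, rose (0.11 ± 0.03). *Gnas*, the alpha subunit of Gs, was 0.06 ± 0.03 in both. Of 7 receptor kinases and arrestins, *Arrb1*, beta-arrestin 1, which uncouples and internalizes receptors, rose in Fracture (0.13 ± 0.03, adjusted p = 0.0484) and in Fracture+PDX mice (0.17 ± 0.03, adjusted p = 0.00993) against Sham. Leaving out 1 library ended the call in 10 of 12 cases for *Arrb1* in Fracture, and in 10 for *Prkacb* and 9 for *Rapgef3* in Fracture+PDX mice. Median log2 fold changes of these 4 lists lay between −0.02 and 0.10.

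Genes used as markers of sympathetic neurons went both ways. In Fracture against Sham, 2 of 9 tested rose and 4 fell, with *Slc6a2* among the latter, where 2.92% of all genes were called. *Npy* and *Ecel1*, which sensory neurons also switch on after injury, rose by 2.51 ± 0.55 and 1.96 ± 0.46 on the log2 scale. Fracture Male 2 held 8.59 and 8.13 CPM of them, against 0.927 to 2.10 and 1.34 to 3.39 CPM in the other Fracture libraries, and without it the differences were 1.70 ± 0.40 and 1.40 ± 0.37 and were not called (adjusted p = 0.0548 and 0.0774). *Hand1*, *Gata2* and *Gata3*, transcription factors that trophoblast also expresses, were −1.46 ± 0.32, −0.86 ± 0.15 and −1.75 ± 0.31. When each of the 12 libraries was left out in turn, the call in Fracture was lost 9 times for *Npy* and *Hand1*, 10 times for *Ecel1* and 0 times for *Gata2* and *Gata3*. All 5 were called in Fracture+PDX mice as well, in the same direction, and there 0 of the 12 omissions ended a call. The other marker lists are of cell types a ganglion sample could hold, and 2.92% of all genes were called in Fracture and 4.5% in Fracture+PDX mice. Of 16 sensory neuron genes, *Tubb3* (0.17 ± 0.03) and *Uchl1* (0.14 ± 0.03), a ubiquitin hydrolase of neurons, rose in Fracture, and both rose in Fracture+PDX mice (0.21 ± 0.03 and 0.14 ± 0.03) together with *Rbfox3* (0.18 ± 0.04), the neuronal nuclear protein. Of 8 satellite glial genes, 0 were called in Fracture and *Kcnj10*, a potassium channel, rose in Fracture+PDX mice (0.27 ± 0.07). Of the 9 endothelial genes, *Esam*, a junction protein, fell in Fracture+PDX mice (−0.26 ± 0.06) beside *Cdh5* and *Flt1*. In Fracture but not in Fracture+PDX mice, 1 of 7 fibroblast genes (*Dcn*, the matrix proteoglycan decorin, −0.33 ± 0.07), 1 of 9 macrophage genes (*Adgre1*, the F4/80 antigen, −0.56 ± 0.10) and 1 of 9 neutrophil genes (*Cxcr2*, a chemokine receptor, −1.25 ± 0.24) were called lower. In Fracture+PDX mice *Dcn* was −0.40 ± 0.10 (adjusted p = 0.0514), *Adgre1* −0.25 ± 0.13 and *Cxcr2* −0.37 ± 0.41. The difference between these comparisons was not tested. Leaving out 1 library ended the call in 9 of 12 cases for *Dcn* and 4 for *Uchl1* in Fracture, and in 11 for *Kcnj10*, 9 for *Esam* and 9 for *Uchl1* in Fracture+PDX mice. No gene was called in the lists of Schwann cells, smooth muscle and pericytes, adipocytes, skeletal muscle, red blood cells or oligodendrocytes. The most counted genes of the smooth muscle, adipocyte, skeletal muscle, red blood cell and oligodendrocyte lists had means of 84.4 CPM (*Acta2*), 9.90 CPM (*Cfd*), 85.3 CPM (*Pvalb*, which proprioceptive neurons also express), 511 CPM (*Hba-a1*) and 300.4 CPM (*Cnp*). Those of the endothelial, fibroblast, macrophage and neutrophil lists had 38.7 CPM (*Egfl7*), 585 CPM (*Col1a2*), 17.4 CPM (*Mrc1*) and 52.6 CPM (*Ngp*).

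Genes whose levels went with each receptor were sought among 13839 genes over the 18 libraries, after the mean of each group and sex was removed. *Adra2c* went most closely with *Prkar1b* (r = 0.94), a regulatory subunit of protein kinase A in neurons, *Kcns3* (0.92), a potassium channel subunit, and *Tbcb* (0.91), a tubulin cofactor. *Adrb1* went with *Mboat7* (0.91), *Urb1* (0.84) and *Tafa1* (0.82), and *Adra1d* with *Klc4* (0.88), *Zfp442* (0.82) and *Zc3h8* (0.81). *Adra2b* went with *Ecm2* (0.86), *Srsf1* (0.86) and *Mpzl2* (0.84), *Adra2a* with *Rap2b* (0.86), *Igsf9b* (0.84) and *Lrig1* (0.83), and *Adra1b* with *Zscan20* (0.81), *Prr3* (0.79) and *Kansl2-ps* (0.79). These are the highest of many correlations in libraries that share depth and dissection, and they carry no test. *Adra1a* and *Adrb3* had fewer than 50 counts in some libraries and were left out of this search.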

How the data were processed

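The data are bulk RNA-seq of mouse lumbar DRG in 18 libraries. The authors deposited counts per gene without normalization and FPKM, scaled for transcript length and library. Libraries were poly(A)-selected and strand-specific, and the submitters' processing notes name cutadapt 1.10, FastQC, HISAT2, StringTie and mm10, without their roles. Columns headed as control were taken as Sham, the group left after the other labels were matched. Differences were tested on counts by edgeR 4.0.16 in R 4.3.3 (filterByExpr, minimum count 10, minimum total 15; TMM; robust quasi-likelihood fit; sex as covariate; 12 libraries per comparison, all 18 for sex), with Benjamini-Hochberg adjustment over all genes tested. Exact permutation tests used log2 CPM (prior count 2), and levels were ordered on log2(FPKM + 0.01) (SciPy 1.17.1). P-values of these tests over the 8 receptors were not adjusted among themselves. The fit was tested on counts simulated for Fracture against Sham. It called 134 of 197 changed genes, 48 of the 66 changed 2-fold among them, and 8 unchanged genes. Each library was labelled as a separate sample, and depth limits low genes such as *Adrb3*.

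The members and lists were chosen with earlier results of these data known. Named genes were the 8 receptors, list genes called in any fit, the most counted gene of each list, the noradrenaline genes (some list genes are not reported here) and, for receptors with at least 50 counts in every library, the 3 genes most like each among those with at least 1 CPM. Alternatives were DESeq2 1.42.0, upper-quartile normalization, other filters, no sex covariate, a replicate block, all 18 libraries, limma 3.58.1 on log2(FPKM + 1) and log2(FPKM + 0.1), CPM for the order, a prior count of 0.5 or FPKM for the exact tests, and leaving out each library. Placental and adipocyte covariates, and leaving out libraries for other called list genes, were added after seeing the data.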

Additional observations from a re-analysis of the deposited data

Results flagged for a closer look

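The highest or lowest library stood apart from its group in 9 of the 60 groups of 6 examined (8 receptors and 12 noradrenaline genes in 3 groups each, by Dixon's gap on log2 CPM), where chance flags about 1 in 20. Among the receptors, *Adra1b* was high in Sham Female 2 (4.10 CPM, next 3.08 CPM) and *Adra2a* was low in Fracture Male 1 (6.45 CPM, next 10.5 CPM). *Dbh* was high in Fracture+PDX Male 2 (2.28 CPM, next 0.112 CPM). *Slc6a2* was low in Sham Female 3 (1.61 CPM, next 3.58 CPM), the Sham library with the fewest placental transcripts. *Slc18a2* was low in Fracture Female 1 (5.40 CPM) and in Fracture+PDX Female 2 (5.95 CPM), and *Ddc* was low in Fracture Female 3 (0.954 CPM). *Pnmt* had 0.0373 CPM in Sham Female 2 and 0.0547 CPM in Fracture+PDX Female 2, which are 3 and 4 counts where the other libraries of the group had 0.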

How the results depend on the processing

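The *Adra2b* difference kept its direction under every alternative. Leaving out each library gave −1.02 to −0.82 in Fracture and −1.34 to −1.07 in Fracture+PDX against Sham, called each time. It was not called in Fracture against Sham with limma on log2(FPKM + 1) (−0.33, adjusted p = 0.0531), and the placental covariate gave −0.41 and −0.69. Mice of the same sex and number were not shown to be paired: 5 of 18 correlations of their deviations were over 0.1 (−0.14 to 0.26). With the replicate block, *Adra2b* was −0.94 in Fracture (adjusted p = 0.0681) and −1.23 in Fracture+PDX mice (adjusted p = 0.0295), and 118 and 486 genes were called.

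Genes called against Sham, in Fracture and Fracture+PDX mice, were 603 and 925, then 1476 and 1581 with DESeq2, 121 and 347 with limma on log2(FPKM + 1), 177 and 457 with log2(FPKM + 0.1), 1 and 0 with the placental covariate, and 213 to 710 and 498 to 1008 without 1 library. Between Fracture+PDX and Fracture, DESeq2 called 21 genes and leaving out a library 0 to 1. The interaction of sex with PDX gave 1, 9 with DESeq2, 0 with either limma fit or at least 10 counts in every library, and 1 to 2 without a library. That with fracture gave 62 with DESeq2, 2 with limma on log2(FPKM + 1) and 0 to 1 without a library. Female against male gave 62, 324 with DESeq2, 24 and 25 with limma, and 24 to 86 without a library. The cause of these shifts was not tested.

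Some values changed sign. With the placental covariate, *Adrb3* was −0.32 in Fracture against Sham (0.43 without it), and in Fracture+PDX against Sham *Adra1d* was −0.044 and *Slc6a2* 0.30 (−1.53 without it). *Adrb1* in Fracture+PDX against Sham was −0.0046 and −0.017 with limma and −0.0018 with the replicate block. Leaving out a library gave −0.077 to 0.12 for it, −0.0040 to 0.12 for *Adra2c* in Fracture against Sham and, in Fracture+PDX against Fracture, −0.034 to 0.094 for *Adra1d*, −0.014 to 0.099 for *Adra2c*, −0.50 to 0.73 for *Adrb3* and −0.27 to 0.45 for *Slc6a2*.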
